A study of Mus musculus with 2 samples.

Results

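Transcripts of the CXC chemokine ligands, including platelet factor 4 (Pf4), were followed in 2 libraries of mouse kidney macrophages. The ligands are 10 genes taken by symbol, Cxcl1, Cxcl2, Cxcl3, Cxcl9, Cxcl10, Cxcl12, Cxcl13, Cxcl14, Cxcl16 and Pf4, and each matched 1 of the 48795 gene rows of the deposited count table. The R2a library came from macrophages sorted as CD11c+, and the R2b library from those sorted as CD11c-. Both populations were taken from PBS-perfused kidneys of wild-type C57BL/6 mice aged 8 weeks, after collagenase digestion and sorting, and the labels name no treatment or altered allele. RNA of 6 to 8 mice was pooled before each library was made, so each population is represented by 1 library and the spread between animals was not measured. No p-value is therefore given. Intervals in parentheses are exact 95% intervals that cover counting error only.

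Reads on genes totalled 11811923 in R2a against 23915896 in R2b, 2.02 times as many, so the counting error is larger in R2a. Itgax, which encodes the sort marker CD11c, stood at 367 CPM (read counts relative to the TMM-scaled library total) in R2a against 48.9 CPM in R2b. It checks the labels and is not a finding. The 10 macrophage markers, among them Adgre1 (F4/80), Cd68 and the complement chains C1qa to C1qc, had reads in both libraries. Their levels summed to 10300 CPM in R2a against 14200 CPM in R2b, and 1 of the 10, the lysozyme gene Lyz2, was called lower in R2a. The log2 ratios of all 10 were below 0, with a median of -0.20. Of all 15603 genes with at least 1 CPM in the higher library, 7929 were below 0, with a median of -0.01, and 1.84% were called lower.

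CXC chemokines are small secreted proteins that bind heparan sulfate and guide leukocytes through G protein-coupled receptors. Those with an ELR motif before the CXC cysteines, which in this set are Cxcl1, Cxcl2 and Cxcl3, act on Cxcr2 and attract neutrophils. Cxcl9 and Cxcl10 are induced by interferons and attract activated T and NK cells through Cxcr3. Cxcl12 binds Cxcr4 and the scavenging receptor Ackr3, Cxcl13 guides B cells through Cxcr5, and Cxcl16 is made as a membrane protein that binds Cxcr6 and is shed by Adam10. Pf4, also named Cxcl4, is a heparin-binding protein best known from platelet granules.

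Calls of higher or lower in R2a required 3 things of a gene: a log2 ratio of CPM plus 0.5 of at least 1 in size, at least 1 CPM in the higher library, and a counting interval of the fold that excluded 1. Of the 10 ligands, 3 were called lower in R2a (Pf4, Cxcl1 and Cxcl2) and 1 was called higher (Cxcl9). Over all 15603 genes with at least 1 CPM in the higher library, 1.84% were called lower and 1.93% higher, 3.77% in all. A further 4 ligands, Cxcl10, Cxcl12, Cxcl14 and Cxcl16, were measured and not called, and Cxcl3 and Cxcl13 were under 1 CPM in both libraries. The median log2 ratio of the 8 measured ligands was -0.63, against -0.01 over all genes compared.

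Start regions of the ligands are shown first, because Cxcl1, Cxcl2 and Cxcl3 share a stretch of sequence there that was not matched in the other 6 windows. Each is the sequence just before the RefSeq start of the gene (GRCm38.p6), written 5′ to 3′ on the gene's own strand, with 120 bases for 5 genes and 250 for Cxcl10. Capitals mark matches, on either strand, to the kappaB consensus bound by NF-kB, to the interferon-type repeat GAAANNGAA and to the AP-1 type motif TGANTCA.
Cxcl1, chr5:90891125-90891244, plus strand: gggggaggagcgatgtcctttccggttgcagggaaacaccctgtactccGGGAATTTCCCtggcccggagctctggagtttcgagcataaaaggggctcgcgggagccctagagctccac
Cxcl2, chr5:90903779-90903898, plus strand: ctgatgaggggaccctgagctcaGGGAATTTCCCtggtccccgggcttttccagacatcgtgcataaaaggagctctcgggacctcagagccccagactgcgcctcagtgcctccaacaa
Cxcl3, chr5:90785981-90786100, plus strand: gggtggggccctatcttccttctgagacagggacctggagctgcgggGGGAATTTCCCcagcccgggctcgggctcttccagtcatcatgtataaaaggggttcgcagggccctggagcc
Pf4, chr5:90772315-90772434, plus strand: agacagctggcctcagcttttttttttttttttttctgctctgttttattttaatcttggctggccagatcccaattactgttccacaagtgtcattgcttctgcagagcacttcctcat
Cxcl9, chr5:92328080-92328199, minus strand: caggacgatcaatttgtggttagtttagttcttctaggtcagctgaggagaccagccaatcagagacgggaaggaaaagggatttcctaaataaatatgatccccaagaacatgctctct
Cxcl10, chr5:92348890-92349139, minus strand: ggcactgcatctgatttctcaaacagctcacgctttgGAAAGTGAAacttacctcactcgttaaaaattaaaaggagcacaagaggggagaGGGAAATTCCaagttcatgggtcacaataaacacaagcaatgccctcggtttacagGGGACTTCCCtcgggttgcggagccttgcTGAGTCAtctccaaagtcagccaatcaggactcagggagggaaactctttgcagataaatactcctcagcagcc

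A promoter window was found in the RefSeq table for 9 of the ligands, and Cxcl16 is named only. In the 250 bases before the start, the longest stretch shared by Cxcl1, Cxcl2 and Cxcl3 was GGGAATTTCCC, of 11 bases. It began 71 bases before the start in Cxcl1, 97 in Cxcl2 and 73 in Cxcl3. This stretch was found, on either strand, in 14 (0.0426%) of all 32851 windows of the same length. The 14 include the windows of Cxcl1, Cxcl2 and Cxcl3 from which the stretch was taken, so this share is a description and no test. The kappaB consensus, which fits that stretch at 2 overlapping positions, was matched in 4 of the 9 ligands and in 3.90% of all windows. The fourth was Cxcl10, with GGGAAATTCC from base 159 and GGGACTTCCC from base 103 before the start.

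Cxcl10 also held a match to GAAANNGAA from base 213 and a match to TGANTCA from base 74. GAAANNGAA was matched in 3 of the 9 ligands, Cxcl9 (from base 175, before the bases shown), Cxcl10 and Cxcl14, and in 7.13% of all windows. TGANTCA was matched in 1 of the 9 and in 6.75% of windows. The GAS-type motif TTCNNNGAA was matched in Cxcl14 and in 7.02% of windows. None of these motifs was matched in the windows of Pf4, Cxcl12 and Cxcl13. The motif letters were chosen after the data had been seen, and a match describes letters, not a bound site.

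**Figure D1:**
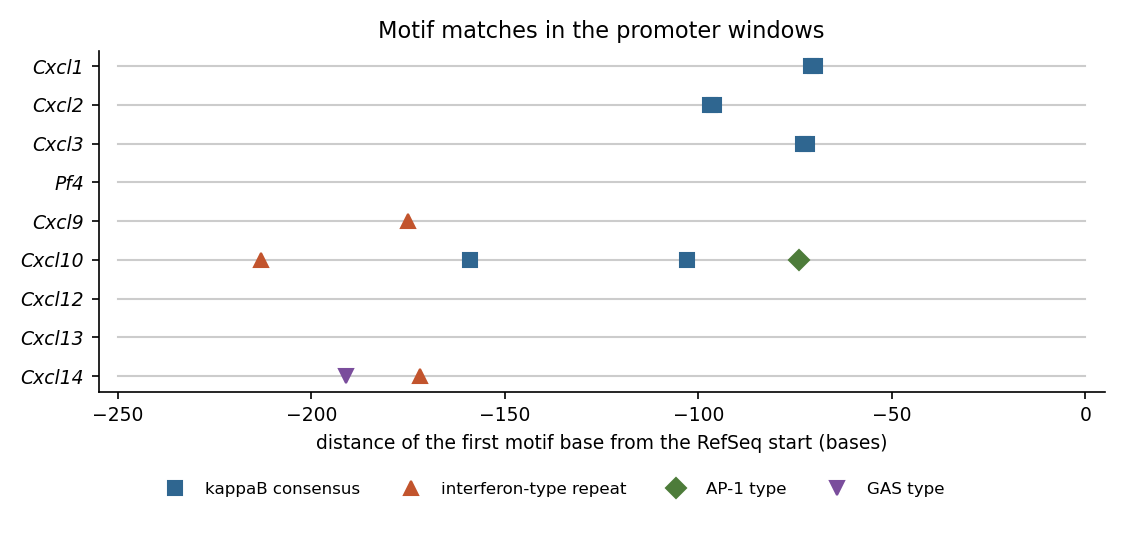
Position of motif matches (symbols) along the 250 bases before the RefSeq start (x axis, bases) of 9 CXC ligands (rows). Cxcl1, Cxcl2 and Cxcl3 each have a pair of overlapping kappaB matches between 97 and 70 bases before the start, and Cxcl10 has 4 matches of 3 kinds.

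The neutrophil attractants Cxcl1 and Cxcl2 were lower in the CD11c+ library, and Cxcl3 was under 1 CPM in both. Cxcl2 (ENSMUSG00000058427.10, GRCm38 chromosome 5, 90903871 to 90905938) had 518 reads in R2a against 2610 in R2b, or 42.7 CPM in R2a against 112 CPM in R2b. Its level was 2.63 times lower in R2a (2.39 to 2.89). Cxcl1 (chromosome 5, 90891241 to 90893115), its neighbour with the same receptor, had 48 reads in R2a against 312 in R2b. That is 3.95 CPM in R2a against 13.4 CPM in R2b, 3.39 times lower in R2a (2.5 to 4.70). Cxcl3 (chromosome 5, 90786103 to 90789600) had 2 reads in R2a against 12 in R2b, a ratio of 0.320 (0.0347 to 1.44), so no difference was detectable at this depth. Reads of the 3 genes together came to 46.8 CPM in R2a against 126 CPM in R2b, and 518 of the 568 reads in R2a and 2610 of the 2934 in R2b were those of Cxcl2.

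The ratio of Cxcl2 to Cxcl1 reads within a library does not depend on scaling. Cxcl2 had 10.8 times the reads of Cxcl1 in R2a (8.02 to 14.8) and 8.37 times in R2b (7.44 to 9.44), and these intervals overlap. Coding sequences of Cxcl2 and Cxcl3 were 91.4% identical over aligned bases, those of Cxcl1 and Cxcl2 80.5%, and those of Cxcl1 and Cxcl3 75.6%. Stretches of 75 bases, the read length, that also occur in Cxcl3 made up 4.57% of the distinct stretches of Cxcl2 transcripts, and no stretch of Cxcl1 recurred in another gene. Read pairs that lie in such stretches cannot be placed uniquely in either gene. In their 3′ untranslated regions Cxcl2 held 11 copies of ATTTA, Cxcl1 held 7 and Cxcl3 held 5, where the median over 19732 genes was 1. ATTTA is the core of the AU-rich elements through which RNA-binding proteins such as Zfp36 speed the decay of cytokine transcripts. At least as many copies as in Cxcl2 were found in 5.76% of genes, at least as many as in Cxcl1 in 13.9% and as in Cxcl3 in 22.7%. These shares take no account of the length of the region. The other 7 ligands held between 0 (Cxcl14) and 4 (Cxcl12). Per kilobase of 3′ untranslated region, Cxcl1 held 11.8 copies, Cxcl3 7.75 and Cxcl2 7.36, and Pf4, with 1 copy in 123 bases, held 8.13. The copies per kilobase were not set against all genes.

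Gene groups often tied to these ligands were set beside them. Of all 15603 genes compared, 7929 had log2 ratios below 0, 1.84% were called lower and 1.93% higher. Of 12 immediate-early and heat-shock genes that rise during tissue digestion, all 12 had log2 ratios below 0, 3 were called lower in R2a (Fos, Fosb and Egr2), and the median was -0.80. Their summed level was 5150 CPM in R2a against 9140 CPM in R2b. Of 18 measured genes that encode NF-kB subunits, or are induced by NF-kB, 15 had log2 ratios below 0, 2 were called lower and 1 higher, with a median of -0.42. The lower ones were the prostaglandin synthase Ptgs2, at 28.3 CPM in R2a against 61.7 CPM in R2b, and the kinase Ikbke, at 0.741 CPM in R2a against 2.58 CPM in R2b. The cytokine Il1a was the higher one, at 5.35 CPM in R2a against 1.89 CPM in R2b. Bcl3, a nuclear partner of NF-kB subunits, had a log2 ratio of -0.86, and Zfp36 had -0.83. The part of these gene groups in the Cxcl1 and Cxcl2 results was not tested. Of the 10 neutrophil markers, Ly6g and Mpo had no read in either library and the rest, apart from Csf3r, had at most 2 reads in R2a and at most 15 in R2b. Csf3r made up 60.4 of the 60.9 summed CPM in R2a and 59.4 of the 61.1 in R2b.

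Pf4 had the lowest ratio of the ligands. Pf4 (ENSMUSG00000029373.7, chromosome 5, 90772435 to 90773383) had 125 reads in R2a against 897 in R2b. That is 10.3 CPM in R2a against 38.5 CPM in R2b, 3.74 times lower in R2a (3.10 to 4.55). Cxcl2 had 4.14 times as many reads as Pf4 in R2a (3.40 to 5.08) and 2.91 times in R2b (2.70 to 3.14), and these intervals do not overlap. Cxcl1 had 0.384 times the reads of Pf4 in R2a (0.269 to 0.540) and 0.348 times in R2b (0.305 to 0.396), and these intervals overlap.

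Because Pf4 is known from platelets, 10 other platelet genes were examined. They summed to 7.83 CPM in R2a against 6.19 CPM in R2b, a fold of 1.26 whose interval (0.966 to 1.65) includes 1, and their part in the Pf4 result was not tested. The surface glycoprotein genes Gp1bb and Gp5 had no read in either library, and the integrin chain Itga2b had 9 reads in R2a against 7 in R2b. A platelet tubulin gene, Tubb1, was called lower, with 1 read in R2a against 26 in R2b, a ratio of 0.0737 (0.00180 to 0.449). The other 3 measured platelet genes had log2 ratios above 0 and were not called, Gp1ba with 36 reads in R2a against 47 in R2b (0.46), Gp9 with 29 against 41 (0.35) and Clec1b with 19 against 15 (0.85). The median of the 4 was 0.41. Ppbp, the platelet CXC ligand next to Pf4 and outside the set of 10, had 0 reads in R2a against 21 in R2b. At 0.902 CPM in R2b it was under the 1 CPM minimum and was not called, and it is not part of the platelet sum. The counting interval of its ratio, 0 to 0.368, excluded 1. That interval allows Ppbp to be as little as 2.72 times lower in R2a. With the 0 bounded at 3 reads, the R2b level was 3.65 times the R2a bound, a value that leaves out counting error in R2b.

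Of the interferon-induced ligands, Cxcl9 was higher in R2a and Cxcl10 was not called. Cxcl9 (ENSMUSG00000029417.9, chromosome 5, 92321347 to 92328079) had 662 reads in R2a against 611 in R2b, although R2b was sequenced more deeply. That is 54.5 CPM in R2a against 26.3 CPM in R2b, 2.08-fold higher in R2a (1.86 to 2.32). The log2 ratio of 1.04 lies just inside the rule, and the interval of the fold includes values under 2. Cxcl10 (chromosome 5, 92346638 to 92348889) had 203 reads in R2a against 268 in R2b. At 16.7 CPM in R2a against 11.5 CPM in R2b it had a log2 ratio of 0.52 and was not called, with a fold of 1.45 (1.20 to 1.75). Cxcl9 had 3.26 times the reads of Cxcl10 in R2a (2.78 to 3.84) and 2.28 times in R2b (1.97 to 2.64). Cxcl10 lies inside a longer gene on the other strand, Art3, which had 22 reads in R2a against 26 in R2b. Cxcl11, the other ligand of Cxcr3, had 2 reads in R2a against 4 in R2b.

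The ratio of Cxcl9 to Cxcl2 reads differed between the libraries beyond counting error. This follows from the opposite calls of the 2 genes and is no separate support for them. The ratio is no order of levels, since the Cxcl9 transcript is the longer one. Cxcl9 had 1.28 times the reads of Cxcl2 in R2a (1.14 to 1.44) and 0.234 times in R2b (0.214 to 0.256). Of 17 measured genes of the interferon-gamma axis 0 were called, near the 3.77% called over all genes, and their median log2 ratio was -0.03. The GTPase genes Gbp3 and Gbp2 had log2 ratios of 0.65 and 0.41, the transcription factor Irf1 -0.25 and the receptor chain Ifngr2 -0.31. Ifng itself had 1 read in R2a against 5 in R2b, and Ido1 had none in either. Of the 6 dendritic cell markers, 5 were measured and 1 was called, the chemokine receptor Xcr1, at 5.44 CPM in R2a against 2.11 CPM in R2b. The C-type lectin gene Clec9a stood at 37.5 CPM in R2a against 20.9 CPM in R2b, Ccr7 had a log2 ratio of -0.04 and Zbtb46 -0.20. The 6 genes summed to 54.2 CPM in R2a against 34.9 CPM in R2b, and their part in the Cxcl9 result was not tested. In pooled RNA of sorted cells, fewer cells of a type and less RNA per cell cannot be told apart.

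**Figure D2:**
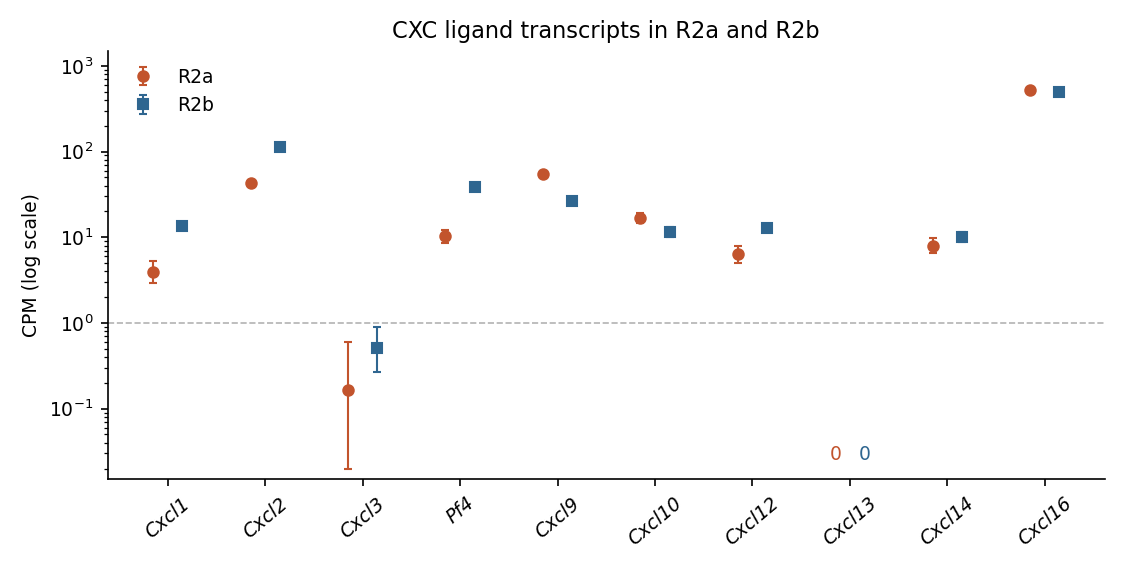
CPM (y axis, log scale) of each CXC ligand (x axis) in R2a (circles) and R2b (squares), 1 library each. Bars are 95% Poisson intervals of the count, the dashed line is 1 CPM, and Cxcl13 had no read. Cxcl16 lies at 517 CPM in R2a against 495 CPM in R2b, and Pf4 and Cxcl1 show the widest gaps between libraries among the measured ligands.

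Cxcl16 was the most abundant ligand in both libraries and was not called. Cxcl16 (ENSMUSG00000018920.11, chromosome 11, 70453983 to 70459984) had 6274 reads in R2a against 11524 in R2b, or 517 CPM in R2a against 495 CPM in R2b. The fold was 1.04 (1.01 to 1.08), an interval that excludes a 2-fold difference between these libraries as far as counting error goes. The sheddases Adam10 and Adam17, which release CXCL16 from the cell surface, had log2 ratios of 0.11 and 0.13. Cxcr6, the receptor of CXCL16, stood at 4.53 CPM in R2a against 4.81 CPM in R2b. The start of Cxcl16 overlaps Zmynd15 on the other strand, and 15.4% of the distinct 75-base stretches of Cxcl16 transcripts recur in Zmynd15. Zmynd15 had 145 CPM in R2a against 133 CPM in R2b. Whether the authors counted by strand is not stated in the labels, so reads of this pair cannot be told apart with certainty.

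Cxcl12 lay just outside the rule. This ligand, which retains leukocytes and progenitor cells through Cxcr4, had 77 reads in R2a against 298 in R2b (chromosome 6, 117168535 to 117181367). Its level was 6.34 CPM in R2a against 12.8 CPM in R2b, a fold of 0.495 (0.380 to 0.638) and a log2 ratio of -0.96. With 0.1 CPM added in place of 0.5 the log2 ratio was -1.0 and Cxcl12 was called lower. Stromal markers, genes of the fibroblasts and pericytes that also make Cxcl12, summed to 17.8 CPM in R2a against 30.7 CPM in R2b. Of 8 measured stromal markers, 7 had log2 ratios below 0 and 3 were called lower (Col1a2, Col3a1 and Dcn), with a median of -0.74. Of all 15603 genes compared, 7929 were below 0 and 1.84% were called lower. Lum had no read in either library, and Col1a2, the highest of these in R2b, stood at 3.87 CPM in R2a against 8.55 CPM in R2b. Endothelial markers, another source of Cxcl12, summed to 117 CPM in R2a against 91.8 CPM in R2b, and 0 of 9 were called. Most of this sum came from Eng, at 59.4 CPM in R2a against 46.0 CPM in R2b, and Pecam1, at 22.7 CPM in R2a against 11.3 CPM in R2b. Of the 9, 4 had log2 ratios below 0, with a median of 0.19, and they ran between Plvap at -0.83 and Pecam1 at 0.97. The part of these cells in the Cxcl12 values was not tested.

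Cxcl14, an attractant of monocytes and dendritic cells that epithelium also makes, was not called. It had 97 reads in R2a against 233 in R2b (chromosome 13, 56288643 to 56296551), or 4.37 CPM per kilobase in R2a against 5.48 in R2b. The fold of 0.798 had an interval (0.623 to 1.02) that includes 1. Tubule markers summed to 2340 CPM in R2a against 2610 CPM in R2b, with 0 of 6 called. The podocyte markers summed to 97.7 CPM in R2a against 58.5 CPM in R2b, with 2 of 5 called higher, Wt1 among them. Over all genes compared, 1.93% were called higher. Cxcl13 (chromosome 5, 95956951 to 95961068) had 0 reads in both libraries, which allows up to 0.247 CPM in R2a against 0.129 CPM in R2b.

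**Figure D3:**
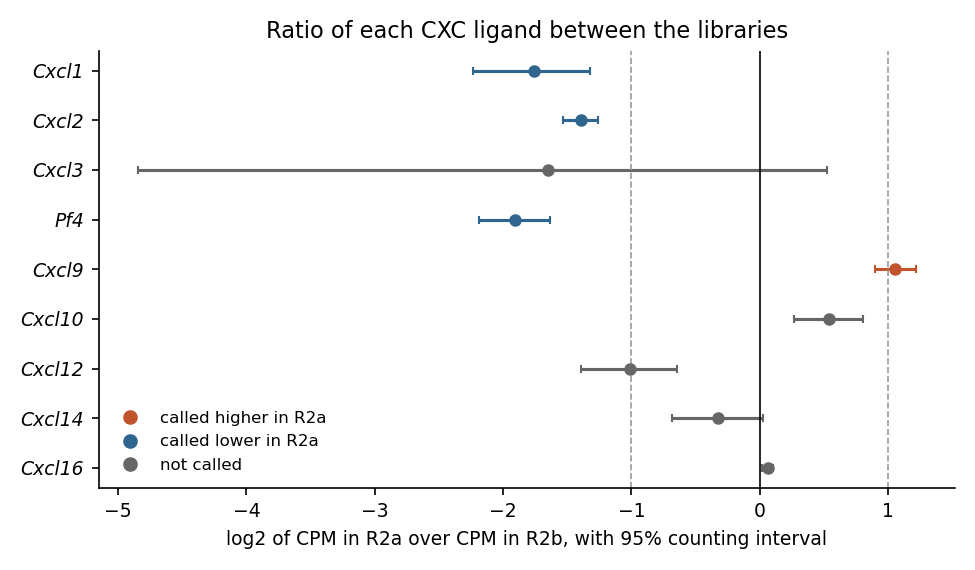
Log2 of the fold, R2a over R2b without an added value (x axis), of 9 CXC ligands (rows), with 95% counting intervals as bars and 2-fold limits as dashed lines. Pf4, Cxcl1 and Cxcl2 lie wholly below the lower limit, the interval of Cxcl12 spans that limit, that of Cxcl9 spans the upper one, and that of Cxcl3 spans 0.

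Between genes, levels were compared as CPM per kilobase of merged exons. In R2a the order was Cxcl16 at 171 CPM per kilobase, Cxcl2 at 20.6, Cxcl9 at 18.1, Pf4 at 14.3, Cxcl10 at 7.43, Cxcl14 at 4.37, Cxcl1 at 2.11, Cxcl12 at 0.776 and Cxcl3 at 0.0471. In R2b it was Cxcl16 at 164 CPM per kilobase, Cxcl2 at 54.2, Pf4 at 53.5, Cxcl9 at 8.71, Cxcl1 at 7.15, Cxcl14 at 5.48, Cxcl10 at 5.11, Cxcl12 at 1.57 and Cxcl3 at 0.147. Counting intervals overlapped between Cxcl2 and Cxcl9 and between Cxcl9 and Pf4 in R2a, and between Cxcl2 and Pf4 and between Cxcl14 and Cxcl10 in R2b. The short Pf4 transcript thus ranked level with Cxcl2 per length in R2b, although Cxcl2 had 2.91 times its reads. Merged exons of Cxcl1 (1875 bases), Cxcl2 (2068), Cxcl3 (3498) and Cxcl10 (2252) cover the whole gene, introns included. On the longest coding transcript instead, Pf4 stood at 65.6 CPM per kilobase and Cxcl2 at 60.3 in R2b, and Cxcl1, at 14.1, ranked above Cxcl9, at 9.09. Cxcl10 stood at 12.4 CPM per kilobase in R2a and 8.51 in R2b on that length, where it ranked above Cxcl14 in R2b too. Per merged exon length, 99.4% of protein-coding genes with a read lay below Cxcl16 in R2a and 99.3% in R2b. For Pf4 these shares were 85.3% in R2a and 97.0% in R2b, and for Cxcl9 88.8% in R2a and 75.6% in R2b.

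The ligands together made up 660 CPM in R2a against 720 CPM in R2b, a log2 ratio of -0.13 (-0.17 to -0.09). Cxcl16 held 78.4% of these reads in R2a (77.4 to 79.3) and 68.7% in R2b (68.0 to 69.4). Without it, the other 9 ligands summed to 143 CPM in R2a against 225 CPM in R2b, a log2 ratio of -0.66 (-0.74 to -0.58). Cxcl9 held 8.27% of the ligand reads in R2a and 3.64% in R2b, Cxcl2 6.47% in R2a and 15.6% in R2b, and Pf4 1.56% in R2a and 5.35% in R2b. These shares of reads depend on transcript length and give no order between genes.

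Of the 10 ligands 7 lie on chromosome 5, and 6 of them in 2 clusters. The span from Pf4 to Cxcl2 covers 134 kb (90772435 to 90905938) and holds 9 genes of the count table. The 3 ligands of this span with at least 1 CPM, Pf4, Cxcl1 and Cxcl2, were the ones called lower. Between them, the lung chemokine Cxcl15 and the gene models Gm24322, Gm43085 and Gm43086 had no read in either library, and Gm22816 had 0 reads in R2a against 4 in R2b. The other span, from Cxcl9 to Cxcl10, covers 27.5 kb and held the ligands with log2 ratios above 0.5, together with Art3 at 1.81 CPM in R2a against 1.12 CPM in R2b.

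**Figure D4:**
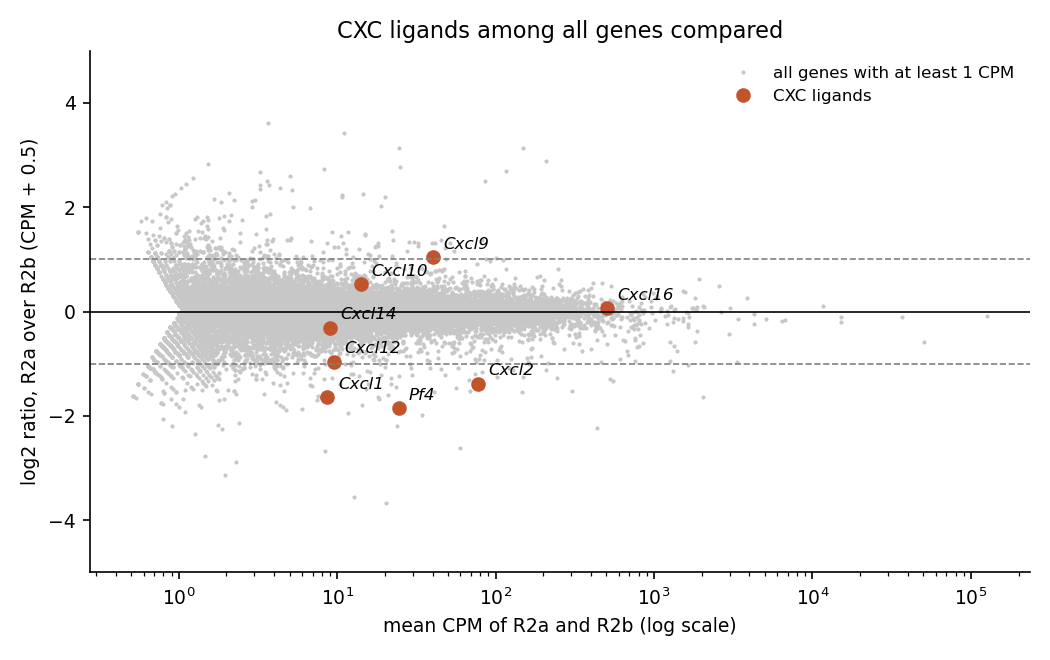
Log2 ratio of R2a over R2b with 0.5 CPM added (y axis) against the mean CPM of both libraries (x axis, log scale) for 15603 genes (grey) and the 8 measured CXC ligands (orange); dashed lines mark the 2-fold rule. Pf4, Cxcl1 and Cxcl2 lie below and Cxcl9 lies just above the lines, and Cxcl16 sits near 0 at the highest level.

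Of 8 receptor genes 4 were measured and 1 was called, with a median log2 ratio of 0.08, where 3.77% of all genes compared were called. Cxcr4, the CXCL12 receptor, stood at 319 CPM in R2a against 366 CPM in R2b, a log2 ratio of -0.20. Cxcr3, the receptor of CXCL9 and CXCL10, was called higher in R2a, at 8.40 CPM in R2a against 3.82 CPM in R2b, 2.20-fold (1.64 to 2.95). Ackr3 stood at 6.26 CPM in R2a against 5.20 CPM in R2b. Cxcr2 had 1 read in R2a against 0 in R2b, and Cxcr1 had none in either. Among 8 measured genes for proteases and other proteins that process chemokines, 2 were called higher and 1 lower. Over all genes compared, 1.93% were called higher and 1.84% lower. Dpp4, which clips CXCL9, CXCL10 and CXCL12, stood at 65.3 CPM in R2a against 24.8 CPM in R2b, and the elastase Mmp12 at 203 CPM in R2a against 31.1 CPM in R2b. The gelatinase Mmp9 had 2 reads in R2a against 103 in R2b, a ratio of 0.0372 (0.00445 to 0.138).

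The CC chemokines, the sister family, were called in both directions. Of 21 CC ligands, 13 were measured, 2 were called higher in R2a (Ccl22 and Ccl5) and 2 lower (Ccl7 and Ccl28). Over all genes compared, 1.93% were called higher and 1.84% lower. The median log2 ratio of the 13 was -0.22. The 21 CC ligands summed to 561 CPM in R2a against 601 CPM in R2b. The monocyte attractants Ccl12 and Ccl2 had log2 ratios of -0.89 and -0.86 and were not called, and Ccl9 had 0.68. The CC family was not tested against the CXC ligands. Of 5 CXC ligands outside the set of 10, 1 was measured, the epithelial ligand Cxcl17, with a log2 ratio of 0.10, and Cxcl5 had no read in either library.

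**Figure D5:**
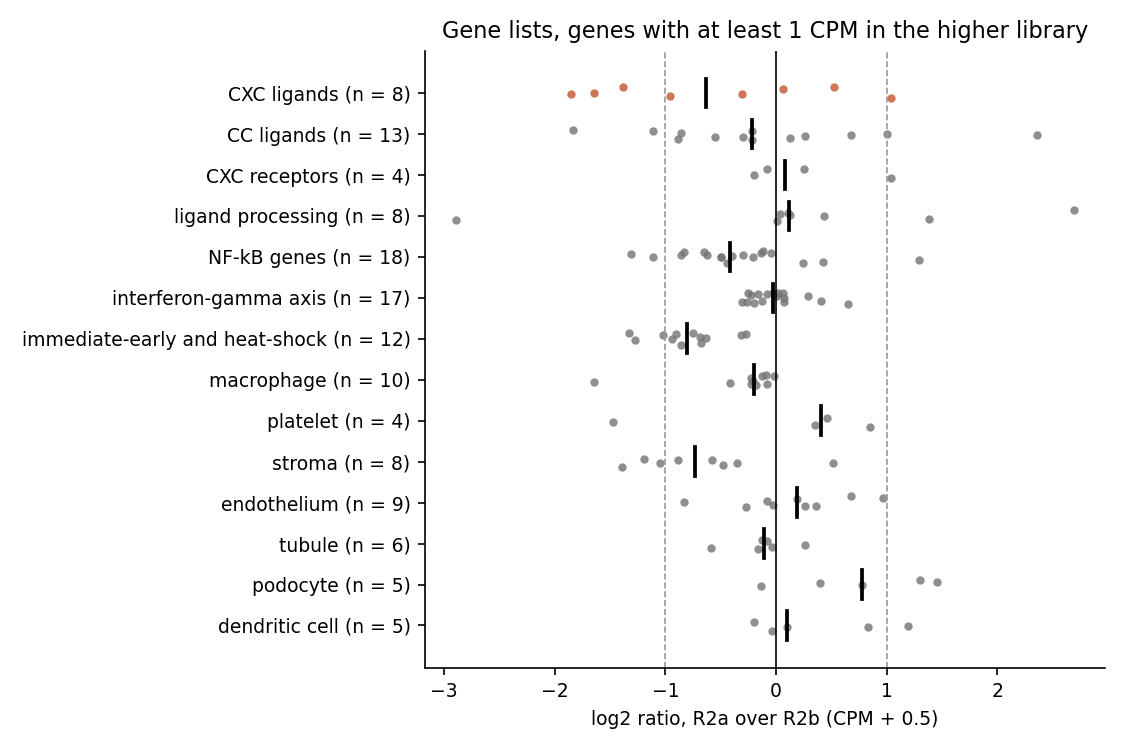
Log2 ratio of R2a over R2b with 0.5 CPM added (x axis) of each measured gene (points) in the CXC ligands and 13 other lists (rows), with the list's median as a black bar and the 2-fold rule as dashed lines. The 12 immediate-early and heat-shock genes and the 10 macrophage markers lie below 0 throughout, and the CXC ligands spread over both sides with a median of -0.63.

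The genes most like each ligand were sought as the nearest protein-coding genes by Euclidean distance in log2 CPM over the 2 libraries, a measure that rests on 2 points per gene. Nearest to Pf4 were Prune2, Enc1 and the chemokine receptor gene Ccr1, the last at 8.24 CPM in R2a against 39.3 CPM in R2b. Nearest to Cxcl2 were the growth factor Igf1, at 45.2 CPM in R2a against 104 CPM in R2b, the cell cycle inhibitor Cdkn1a and Marcksl1. Nearest to Cxcl1 were Plekhg5, Afap1l1 and Ms4a4a. Nearest to Cxcl9 were Dock5, Mical1 and the Src-family kinase Fgr, at 56.8 CPM in R2a against 22.6 CPM in R2b. The distances were 0.13 to 0.33 for these 4 ligands.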

How the data were processed

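RNA sequencing counts of 2 libraries were used. The deposited values are whole-number counts per gene. Base calling used bcl2fastq 2.18.0.12, alignment STAR 2.5.3 to GRCm38 and counting HTSeq 0.9.1, per the submitters' processing notes, and reads were paired with 75 bases each, per the labels' protocols. Annotation release, strand setting and count mode: not given in the sources used here. The notes also name DESeq2, whose output was not used. Reads on genes made up 47.9% of the table's total in R2a and 50.3% in R2b, and 5 summary rows of the counter stayed out.

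Symbols, positions and exon lengths came from GENCODE M21 (GRCm38), in which 48435 of the 48795 identifiers were found. Counts were scaled with TMM (edgeR 4.0.16, R 4.3.3) to CPM. With 1 library a group no test across genes could be run, so calls describe these libraries and not the populations. Fold intervals are Clopper-Pearson on the split of a gene's reads (scipy 1.17.1), and levels have Poisson intervals. Both cover counting error only, because each group has 1 library, and both treat reads as independent. PCR copies without molecular identifiers cannot be separated from molecules, so the intervals may be too narrow. A count of 0 was bounded at 3 reads per library.

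Simulated data for R2a against R2b (24615 genes) held Poisson counting error around the mean of both libraries and no spread between animals or preparations. Changed genes were drawn only from levels above the 1 CPM minimum. Of these, 47 of 50 set 3-fold higher, 49 of 50 set 3-fold lower and 50 of 50 at 6-fold in each direction were called. Of 15158 unchanged genes, 12 were called. These counts describe counting error only and give no rate of false calls for the real libraries.

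The members and lists were chosen with earlier results of these data known. Besides the ligands, the naming rule took genes within the chromosome 5 clusters, up to 4 genes of each list with the largest log2 ratios among those with at least 5 CPM, defining markers at 0, and the 3 protein-coding genes nearest each ligand with at least 10 CPM. Other list genes were named after their values were seen. T and NK cell markers (1 of 6 measured, Cd3e, called lower) and B cell markers (2 of 4 measured, 0 called) were also run. Over all genes compared, 1.84% were called lower and 3.77% in either direction. Promoters came from RefSeq (GRCm38.p6). Alternatives were other scalings (one with DESeq2 1.42.0 size factors), added values, minimums, size rules and a thinned R2b library. Single values of some list genes are not reported here.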

Additional observations from a re-analysis of the deposited data

How the results depend on the processing

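Added values, minimums and size rules cannot turn a direction. The other alternatives (4 on library size and the thinned R2b library) left the sign of each of the 9 ligands with reads as reported. Pf4, Cxcl1 and Cxcl2 were called lower and Cxcl9 higher under each alternative except the 4-fold size rule, at which 0 ligands were called, 0 higher and 0 lower. Cxcl12 was called with 0.1 CPM added and at 1.5-fold. The summed ligands had a log2 ratio of -0.05 under total-count scaling and -0.66 without Cxcl16, against -0.13. Over all genes, 301 higher and 287 lower calls became 493 and 462 with 0.1 CPM added, 82 and 78 with 2 CPM added, 92 and 97 with a 5 CPM minimum, which tests fewer genes, 869 and 903 at 1.5-fold and 41 and 16 at 4-fold. Total-count scaling raised the share of higher calls to 61.1%, against 51.2%. The longest coding transcript as length was an alternative chosen after seeing the data. No paired analysis was possible because each group has 1 library. Depth limits Cxcl3, with 2 reads in R2a against 12 in R2b, and Cxcl13, with none.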
